A study of Mus musculus with 6 samples.

Results

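The vacuolar H+-ATPase (V-ATPase) is the proton pump that acidifies lysosomes and endosomes in every cell and secretes acid across the apical membrane of intercalated cells in the kidney collecting duct. Its cytosolic V1 sector hydrolyses ATP and its membrane Vo sector carries the protons, and the pump is switched on and off by joining and separating these sectors. Several subunits exist as isoforms, and mutations of ATP6V1B1 or ATP6V0A4 in humans, the genes of the B1 and a4 isoforms of the collecting duct, cause distal renal tubular acidosis. In mouse kidney a4 is also found in the proximal tubule.

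The genes described here are 35 named subunits, accessory proteins and assembly regulators of the V-ATPase, chosen by symbol. Of these, 34 were present among the 15302 genes listed, and all 34 passed the minimum mean of 0.5 FPKM, a level corrected for transcript length and library depth. The expression of Atp6v0c, the proton-carrying c subunit, was not analysed here. The members fall into 5 isoforms enriched in intercalated cells (Atp6v0a4, Atp6v1b1, Atp6v1c2, Atp6v0d2 and Atp6v1g3), 8 paralogues of these, most of them used widely, 5 other V1 subunits, 6 other Vo and accessory genes, 3 assembly factors of the endoplasmic reticulum, 4 genes of the rabconnectin/RAVE complex and 3 genes with a TLDc domain.

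Poly A-selected RNA of whole kidneys from 45-day-old mice was sequenced in 6 libraries. Tsc1-KO replicates 4, 5 and 6 came from Tsc1f/f/Aqp2 Cre mice, and WT replicates 1, 2 and 3 came from mice labelled C57BL/6. Cre is driven by the Aqp2 promoter, and the study describes the knockout as specific to principal cells. Which cells lost Tsc1 in these kidneys was not tested. The labels do not name the WT mice as littermates, and effects of the Cre line or of the strain cannot be told apart from the loss of Tsc1.

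Reads in listed genes numbered 19568856 to 24647430 in Tsc1-KO libraries and 21604453 to 22450574 in WT libraries, and every member was supported by at least 86 reads in each library and by at most 22089. Tsc1, the deleted gene, gave 7.69, 7.61 and 8.23 FPKM in Tsc1-KO replicates 4, 5 and 6, against 8.46, 8.91 and 7.49 FPKM in WT replicates 1, 2 and 3. The groups overlapped (log2 fold change -0.07, limma adjusted p = 0.699). With a knockout described as specific to principal cells, most kidney cells would keep the gene, but the reason for the similar level was not tested. WT replicate 3 differed from its group, with a correlation across genes of 0.977 and 0.976 with WT replicates 1 and 2, which correlated at 0.992 with each other. Its correlation with Tsc1-KO replicates 4, 5 and 6 was 0.981, 0.98 and 0.974, and that of WT replicates 1 and 2 with these libraries was 0.976 to 0.982. The labelled tissue was checked with proximal tubule markers, and the summed level of 15 such genes was 34639 to 40909 FPKM in Tsc1-KO libraries and 37232 to 49133 FPKM in WT libraries. Most of each sum came from 1 gene, Kap, at 26818 to 31802 FPKM in Tsc1-KO libraries and 26957 to 38369 FPKM in WT libraries. Of the 15 genes, 14 had a negative log2 fold change, with a median of -0.19 against 0.04 over all tested genes.

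Among the members, 4 of 34 were higher in Tsc1-KO kidneys and 0 were lower in limma at an adjusted p under 0.05. Among all 13230 tested genes, 1.87% were higher and 0.234% were lower by the same rule. The 4 were Atp6v0d2, Atp6v1g3, Atp6v1c2 and Atp6v1b1, all isoforms of intercalated cells. Atp6v0d2, Atp6v1c2 and Atp6v1g3 had been picked out by the study on these libraries, so their direction here is not independent evidence. At an unadjusted p under 0.05 from limma, 14 of the 34 members were higher and 1 was lower, against 13.4% and 5.72% of all tested genes. Limma-voom on recovered reads called 5 members higher and 0 lower. The median log2 fold change was 0.14 over the 34 members and 0.04 over all tested genes. In 18 members every Tsc1-KO library lay above every WT library and in 3 every one lay below, against 17.3% and 8.07% of all tested genes.

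As isoforms that rose together, Atp6v1b1, Atp6v1c2 and Atp6v1g3 are shown with the 250 bases before their RefSeq transcription start, in build GRCm38.p6. They lie at chr6:83742767-83743016 (plus strand), chr12:17324731-17324980 (minus strand) and chr1:138273488-138273737 (plus strand). Capitals mark GTAAACA on either strand, a core motif of forkhead factors, the family of the intercalated-cell regulator Foxi1.
Atp6v1b1: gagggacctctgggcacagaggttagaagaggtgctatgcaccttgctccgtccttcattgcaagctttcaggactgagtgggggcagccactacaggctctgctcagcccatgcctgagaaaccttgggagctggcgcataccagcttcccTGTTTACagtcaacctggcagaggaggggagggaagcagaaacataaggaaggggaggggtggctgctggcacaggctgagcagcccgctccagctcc
Atp6v1c2: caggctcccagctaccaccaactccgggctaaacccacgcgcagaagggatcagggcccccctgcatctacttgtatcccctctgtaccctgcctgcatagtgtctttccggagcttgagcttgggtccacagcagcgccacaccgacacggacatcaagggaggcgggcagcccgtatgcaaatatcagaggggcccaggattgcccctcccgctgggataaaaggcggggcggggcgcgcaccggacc
Atp6v1g3: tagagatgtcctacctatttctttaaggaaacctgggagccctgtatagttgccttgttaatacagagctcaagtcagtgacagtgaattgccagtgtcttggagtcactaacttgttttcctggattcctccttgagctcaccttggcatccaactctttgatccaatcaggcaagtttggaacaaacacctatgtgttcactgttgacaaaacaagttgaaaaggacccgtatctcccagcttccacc

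The search window ran from 250 bases before to 50 bases after each start, and 25 of the 35 members had an entry, with 33 promoters in all. GTAAACA was present only in Atp6v1b1 among these members (1 of the 33 promoters), with its first base 98 bases before the start, and in 3.65% of all 32851 promoters. The shorter TAAACA, which lies within it, was likewise present in Atp6v1b1 alone of the members and in 13.4% of all promoters. Atp6v1c2, Atp6v1g3 and Atp6v0a4 held neither motif in this window, and Atp6v0d2 was not analysed here. The E-box TCACGTGA, which reads the same on both strands and is bound by TFEB and TFE3, the regulators of lysosomal genes, was present in 4 members (4 of the 33 promoters) and in 0.974% of all promoters. None of these 4 was an isoform of intercalated cells and none passed the limma test. Only 4 isoforms had an entry, too few to compare with the other members. The median GC content was 59.2% for promoters of the other 21 members, 52.6% for the isoforms and 52.7% over all promoters. The part of GC content in the E-box counts was not tested. The E-box core CACGTG was present in 7 members (8 of the 33 promoters) and in 7.15% of all promoters. Windows around TCACGTGA, in capitals, are shown for contrast with the isoforms above, and lie at chr8:105566050-105566079 (minus strand), chr16:44139373-44139402 (minus strand), chr17:26676387-26676416 (plus strand) and chrX:71816694-71816723 (plus strand).
Atp6v0d1: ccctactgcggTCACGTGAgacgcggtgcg
Atp6v1a: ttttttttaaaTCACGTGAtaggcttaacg
Atp6v0e: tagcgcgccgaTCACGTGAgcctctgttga
Vma21: ccgcgggtaagTCACGTGAgtgcttgcagc

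The intercalated-cell isoforms were compared first. Of the 5, 4 were higher in Tsc1-KO kidneys in limma, against 1.87% of all tested genes. In all 5 the lowest Tsc1-KO library lay above the highest WT library, against 17.3% of all tested genes. Atp6v0d2, the d2 subunit that connects V1 to Vo and is also known from osteoclasts, had 37.9, 52.4 and 46.4 FPKM in Tsc1-KO replicates 4, 5 and 6, against 14.4, 15.7 and 17.6 FPKM in WT replicates 1, 2 and 3. The lowest Tsc1-KO library was thus far above the highest WT library, and Tsc1-KO replicate 5 was the highest of all. The ratio of the means was 2.86, and the log2 fold change was 1.5 (95% interval 1.20 to 1.81, limma adjusted p = 0.00696).

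Atp6v1g3, the G3 subunit of the stalk that holds V1 to the membrane sector, had 61.0, 77.6 and 65.6 FPKM in Tsc1-KO replicates 4, 5 and 6, against 25.2, 30.1 and 33.5 FPKM in WT replicates 1, 2 and 3. It rose in every Tsc1-KO library, with replicate 5 again highest. The log2 fold change was 1.20 (95% interval 0.90 to 1.51, limma adjusted p = 0.0107). Atp6v1c2, the C2 subunit at the junction of the sectors, had 21.4, 28.9 and 25.2 FPKM in Tsc1-KO replicates 4, 5 and 6, against 15.2, 15.7 and 15.9 FPKM in WT replicates 1, 2 and 3. The WT libraries were nearly equal, whereas the Tsc1-KO libraries spread over a wider range (SD 3.73 FPKM against 0.376 FPKM, n = 3 each). Its log2 fold change was 0.68 (95% interval 0.42 to 0.93, limma adjusted p = 0.0325). Atp6v1c2 shares 50 of its 2174 exonic bases with Pdia6 on the other strand, a chaperone gene at 132 ± 7.65 FPKM in Tsc1-KO kidneys and 103 ± 3.49 FPKM in WT kidneys (SD, n = 3 each). Pdia6 rose by a log2 fold change of 0.36 (limma adjusted p = 0.0394), and whether reads were counted by strand is not given in the sources used here.

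Atp6v1b1, the B1 subunit that forms part of the ATP-binding sites of V1, had 60.8, 68.4 and 66.3 FPKM in Tsc1-KO replicates 4, 5 and 6, against 48.4, 53.1 and 49.6 FPKM in WT replicates 1, 2 and 3. The groups did not overlap, but the difference was smaller than for the 3 isoforms above, with a log2 fold change of 0.37 (95% interval 0.21 to 0.53, limma adjusted p = 0.0454). This was the call nearest to the threshold. Atp6v0a4, the a4 subunit through which protons pass, had 111, 116 and 119 FPKM in Tsc1-KO replicates 4, 5 and 6, against 102, 109 and 108 FPKM in WT replicates 1, 2 and 3. The groups were separated by a small margin, and the test was not passed, with a log2 fold change of 0.12 (95% interval -0.01 to 0.24, limma adjusted p = 0.311). Atp6v0a4 shares 259 of its 4973 exonic bases with D630045J12Rik on the same strand (log2 fold change -0.26, limma adjusted p = 0.295). It shares 62 with Tmem213 on the other strand (0.34, limma adjusted p = 0.124). Exonic bases are also shared by Atp6v1g2 (144 of 2510, with Nfkbil1 on the other strand) and Tbc1d24 (89 of 8557, with Ntn3 on the same strand). The part of these overlaps in the levels was not tested.

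**Figure D1:**
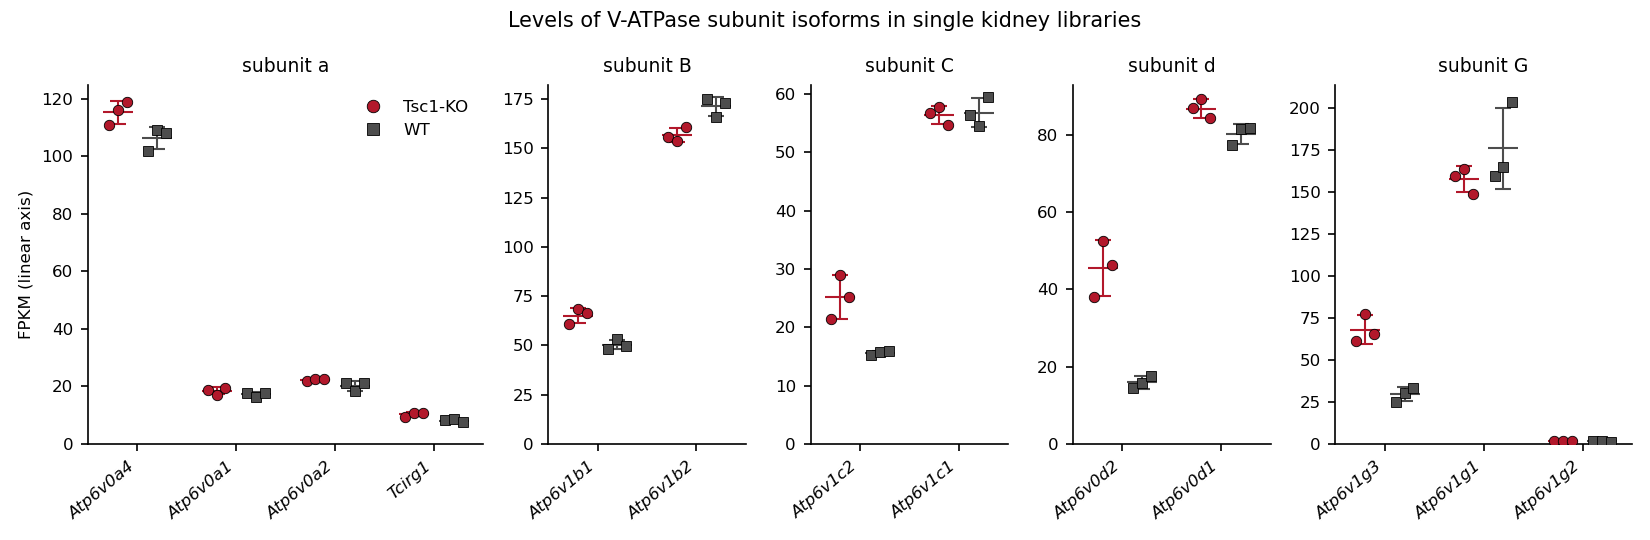
FPKM on linear axes from 0 of the isoforms of subunits a, B, C, d and G in each library, with the mean and SD of each group (n = 3), Tsc1-KO as circles and WT as squares. Atp6v0d2 and Atp6v1g3 in Tsc1-KO libraries lie at or above 37.9 and 61.0 FPKM, and WT libraries lie at or below 17.6 and 33.5 FPKM, while the groups lie close together for the paralogues.

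As FPKM is per length, levels can also be ordered across the isoforms. In Tsc1-KO kidneys the order was Atp6v0a4 (115 ± 3.85 FPKM), Atp6v1g3 (68.1 ± 8.57), Atp6v1b1 (65.2 ± 3.96), Atp6v0d2 (45.6 ± 7.25) and Atp6v1c2 (25.2 ± 3.73), and in WT kidneys it was Atp6v0a4 (106 ± 3.83), Atp6v1b1 (50.4 ± 2.48), Atp6v1g3 (29.6 ± 4.2), Atp6v0d2 (15.9 ± 1.63) and Atp6v1c2 (15.6 ± 0.376), each as mean and SD in FPKM with n = 3. The libraries of Atp6v1g3 and Atp6v1b1 overlapped in Tsc1-KO kidneys, and those of Atp6v0d2 and Atp6v1c2 overlapped in WT kidneys. In each genotype, Atp6v0a4 was thus the most abundant of the 5 and Atp6v1c2 had the lowest mean, though in WT kidneys it was not separated from Atp6v0d2.

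The paralogues of these isoforms gave no call. Of 8, limma called 0 higher and 0 lower, with 1 higher and 1 lower at an unadjusted p under 0.05 (13.4% and 5.72% of all tested genes) and 0 of either in limma-voom. Their median log2 fold change was 0.11. Atp6v0d1, the general d1 subunit, had 86.8, 89.2 and 84.2 FPKM in Tsc1-KO replicates 4, 5 and 6, against 77.3, 81.5 and 81.8 FPKM in WT replicates 1, 2 and 3 (log2 fold change 0.11, limma adjusted p = 0.299). These groups did not overlap, though by little. Atp6v1g1, the general G1 subunit, had 159.8, 164 and 149 FPKM in Tsc1-KO replicates 4, 5 and 6, against 159.6, 165 and 204 FPKM in WT replicates 1, 2 and 3. WT replicate 3 was far above all others for this gene, and the log2 fold change of -0.15 had an interval of -0.39 to 0.09 (limma adjusted p = 0.473). Atp6v1g2, the G2 subunit known mainly from neurons, was the member with the fewest reads (86 to 135 per library), with 1.53, 1.68 and 1.85 FPKM in Tsc1-KO replicates 4, 5 and 6, against 1.44, 1.46 and 1.35 FPKM in WT replicates 1, 2 and 3 (log2 fold change 0.24, limma adjusted p = 0.375).

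Atp6v1b2, the general B2 subunit and the most abundant B isoform here, had 156, 154 and 161 FPKM in Tsc1-KO replicates 4, 5 and 6, against 175, 166 and 173 FPKM in WT replicates 1, 2 and 3. It was the one paralogue with every Tsc1-KO library below every WT library, and the log2 fold change of -0.12 (95% interval -0.24 to -0.01) did not pass after adjustment (limma adjusted p = 0.243). Atp6v1c1, the general C1 subunit, had 56.7, 57.7 and 54.7 FPKM in Tsc1-KO replicates 4, 5 and 6, against 56.4, 54.5 and 59.4 FPKM in WT replicates 1, 2 and 3. Its groups overlapped, with a log2 fold change of -0.01 (95% interval -0.14 to 0.12, limma adjusted p = 0.951).

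Subunit a has 3 paralogues besides a4. Tcirg1, the a3 subunit of osteoclasts and lysosomes, had 9.44, 10.7 and 10.6 FPKM in Tsc1-KO replicates 4, 5 and 6, against 8.14, 8.59 and 7.59 FPKM in WT replicates 1, 2 and 3. The groups did not overlap, and the log2 fold change of 0.33 (95% interval 0.13 to 0.53) did not pass the test (limma adjusted p = 0.102). Atp6v0a2, the a2 subunit of the Golgi and endosomes, had 21.9, 22.7 and 22.5 FPKM in Tsc1-KO replicates 4, 5 and 6, against 21.1, 18.3 and 21.1 FPKM in WT replicates 1, 2 and 3 (log2 fold change 0.15, limma adjusted p = 0.316). Atp6v0a1, the a1 subunit, had 18.8, 17.1 and 19.5 FPKM in Tsc1-KO replicates 4, 5 and 6, against 17.6, 16.2 and 17.7 FPKM in WT replicates 1, 2 and 3 (log2 fold change 0.10, limma adjusted p = 0.498). For a2 the groups did not overlap, and for a1 they did.

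The contrast of each isoform with its paralogues was then taken within each library, which a scaling of the library cannot move. Atp6v0d2 stood to Atp6v0d1 at 0.437, 0.587 and 0.551 in Tsc1-KO replicates 4, 5 and 6, against 0.186, 0.193 and 0.215 in WT replicates 1, 2 and 3. The ratio was 2.64-fold higher in Tsc1-KO kidneys, a log2 difference of 1.40. Atp6v1g3 stood to Atp6v1g1 at 0.382, 0.472 and 0.440 in Tsc1-KO replicates 4, 5 and 6, against 0.158, 0.183 and 0.164 in WT replicates 1, 2 and 3, a log2 difference of 1.36. Both ratios were separated between the genotypes by more than the spread within either. The log2 difference was 0.69 for Atp6v1c2 to Atp6v1c1 and 0.50 for Atp6v1b1 to Atp6v1b2, again without overlap. In each of these 4 ratios the two-sided exact permutation test gave p = 0.1, the smallest that 3 against 3 libraries can give, and p = 0.125 after Benjamini-Hochberg adjustment over the 5 ratios. The ratio of Atp6v0a4 to the sum of Atp6v0a1, Atp6v0a2 and Tcirg1 was 2.22, 2.29 and 2.26 in Tsc1-KO replicates 4, 5 and 6, against 2.18, 2.53 and 2.32 in WT replicates 1, 2 and 3. Its log2 difference of -0.05 lay within the spread (exact permutation p = 0.6).

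Expressed as a share of all FPKM of a subunit, the d2 isoform made up 34.3% ± 3.46 of subunit d in Tsc1-KO kidneys and 16.5% ± 1.07 in WT kidneys (SD, n = 3 each). The G3 isoform made up 29.9% ± 2.23 of subunit G in Tsc1-KO kidneys and 14.3% ± 0.931 in WT kidneys. These isoforms thus took a larger part of their subunit. The C2 isoform made up 30.8% ± 3.04 of subunit C in Tsc1-KO kidneys and 21.6% ± 0.716 in WT kidneys, and the B1 isoform made up 29.3% ± 1.33 of subunit B in Tsc1-KO kidneys and 22.7% ± 1.31 in WT kidneys. The a4 isoform held 69.3% ± 0.358 of subunit a in Tsc1-KO kidneys and 70.1% ± 1.58 in WT kidneys, and was alone in being the main isoform of its subunit in both.

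**Figure D2:**
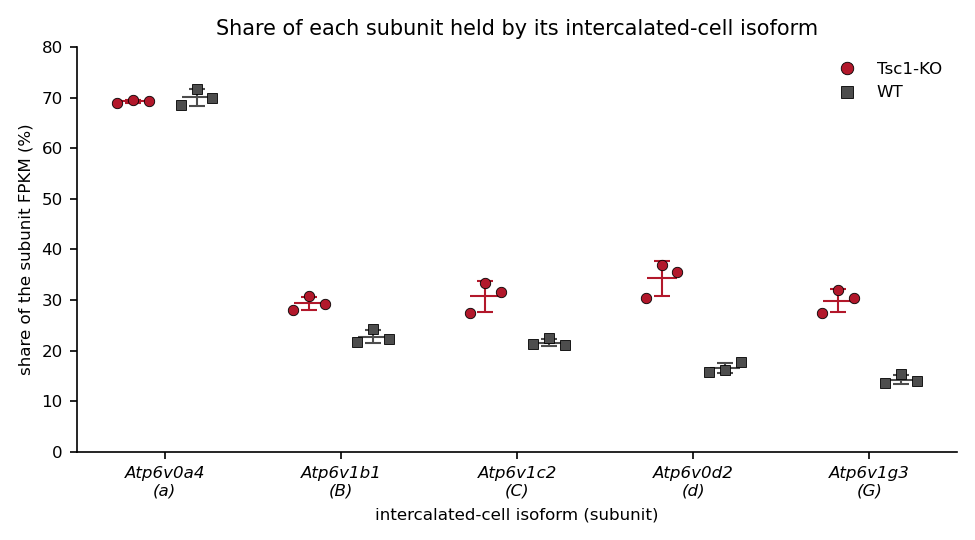
Share of the summed FPKM of each subunit that its intercalated-cell isoform held, in percent from 0, for each library, with the mean and SD of each group (n = 3), Tsc1-KO as circles and WT as squares. The shares of d2 and G3 are at 27.4% or above in Tsc1-KO libraries and at 17.7% or below in WT libraries, while that of a4 is between 68.5% and 71.7% in all 6.

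The summed level of a subunit need not change with its isoforms. Subunit d summed to 125, 142 and 131 FPKM in Tsc1-KO replicates 4, 5 and 6, against 91.7, 97.2 and 99.4 FPKM in WT replicates 1, 2 and 3. This was the largest difference among the 5 subunits with isoforms, 1.38-fold by the means. Subunit B summed to 222 ± 5.35 FPKM in Tsc1-KO kidneys and 222 ± 1.87 FPKM in WT kidneys (SD, n = 3 each), as the difference of the means, Tsc1-KO minus WT, was 14.8 FPKM for B1 and -14.2 FPKM for B2. Subunit C summed to 81.5 ± 4.48 FPKM in Tsc1-KO kidneys and 72.4 ± 2.64 FPKM in WT kidneys, and subunit a to 166 ± 5.07 FPKM in Tsc1-KO kidneys and 152 ± 2.73 FPKM in WT kidneys. Both sums were without overlap between the genotypes. Subunit G summed to 228 ± 14.2 FPKM in Tsc1-KO kidneys and 207 ± 28.1 FPKM in WT kidneys, where the groups overlapped.

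The subunits of V1 that have no intercalated-cell isoform among the members gave 0 calls of 5, with 3 higher at an unadjusted p under 0.05 from limma (13.4% of all tested genes) and 0 in limma-voom. All 5 log2 fold changes were positive, as were 59.8% over all tested genes, with a median of 0.18. Atp6v1d, part of the central rotor, had 115, 124 and 117 FPKM in Tsc1-KO replicates 4, 5 and 6, against 103, 101 and 101 FPKM in WT replicates 1, 2 and 3. The groups did not overlap, and the log2 fold change of 0.22 (95% interval 0.10 to 0.35) did not pass the test (limma adjusted p = 0.0867). The catalytic subunit Atp6v1a was at 215 ± 12.1 FPKM in Tsc1-KO kidneys and 196 ± 17.2 FPKM in WT kidneys, with overlapping groups (log2 fold change 0.14). The regulatory subunit Atp6v1h and the stalk subunit Atp6v1e1 had log2 fold changes of 0.21 and 0.18 without overlap, and the rotor subunit Atp6v1f had 0.10 with overlap.

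The 6 other genes of Vo and its accessory proteins gave 0 calls in limma and 0 in limma-voom, with a median log2 fold change of 0.24. At an unadjusted p under 0.05 from limma 4 were higher and 0 lower, against 13.4% and 5.72% of all tested genes. Atp6ap1, the accessory subunit Ac45, came nearest to a call, with 127, 136 and 135 FPKM in Tsc1-KO replicates 4, 5 and 6, against 107, 103 and 112 FPKM in WT replicates 1, 2 and 3. Its groups did not overlap, with a log2 fold change of 0.31 (95% interval 0.17 to 0.45, limma adjusted p = 0.0525). Atp6ap2, the accessory subunit also known as the prorenin receptor, was at 75.8 ± 7.71 FPKM in Tsc1-KO kidneys and 60.6 ± 1.79 FPKM in WT kidneys, without overlap (log2 fold change 0.32, limma adjusted p = 0.107). Atp6v0b, the c'' subunit of the proton-carrying ring, and Atp6v0e, a small Vo subunit, had log2 fold changes of 0.21 and 0.27, also without overlap. The paralogue of Atp6v0e, Atp6v0e2, went the other way, with a log2 fold change of -0.12 and every Tsc1-KO library below every WT library, and did not pass (limma adjusted p = 0.333). Rnasek, a small Vo protein, had its highest level in WT replicate 3 (270.1 FPKM) and a log2 fold change of 0.02.

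Assembly factors were the members closest to 0 as a class. The factors that build Vo in the endoplasmic reticulum, Vma21, Tmem199 and Ccdc115, gave 0 calls of 3 in limma and 0 in limma-voom. At an unadjusted p under 0.05 from limma 1 was higher, against 13.4% of all tested genes. Vma21 was at 11.9 ± 0.563 FPKM in Tsc1-KO kidneys and 11.9 ± 1.21 FPKM in WT kidneys (SD, n = 3 each). Ccdc115 had a log2 fold change of 0.19 (95% interval 0.01 to 0.37) without overlap, and Tmem199 had 0.05 with overlap. The rabconnectin/RAVE genes Dmxl1, Dmxl2, Wdr7 and Rogdi, whose products reattach V1 to Vo, gave 0 calls of 4, 0 at an unadjusted p under 0.05 from limma and 0 in limma-voom, with a median log2 fold change of -0.03. Wdr7 had the most negative log2 fold change of all members, at 4.67 ± 0.137 FPKM in Tsc1-KO kidneys and 5.37 ± 0.369 FPKM in WT kidneys, without overlap (log2 fold change -0.19, limma adjusted p = 0.287).

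The TLDc genes encode proteins that bind the V-ATPase and act on its assembly. Tbc1d24 had 1.34, 1.54 and 1.74 FPKM in Tsc1-KO replicates 4, 5 and 6, against 0.962, 0.893 and 0.787 FPKM in WT replicates 1, 2 and 3. Its groups did not overlap and its log2 fold change of 0.74 (95% interval 0.36 to 1.12) was the third largest of the members, but it did not pass (limma adjusted p = 0.0748). It passed in limma-voom on recovered reads (adjusted p = 0.0345), where its log2 fold change was 0.81. Oxr1 and Ncoa7, which is known from intercalated cells in mouse, had log2 fold changes of 0.13 and -0.07 with overlapping groups.

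**Figure D3:**
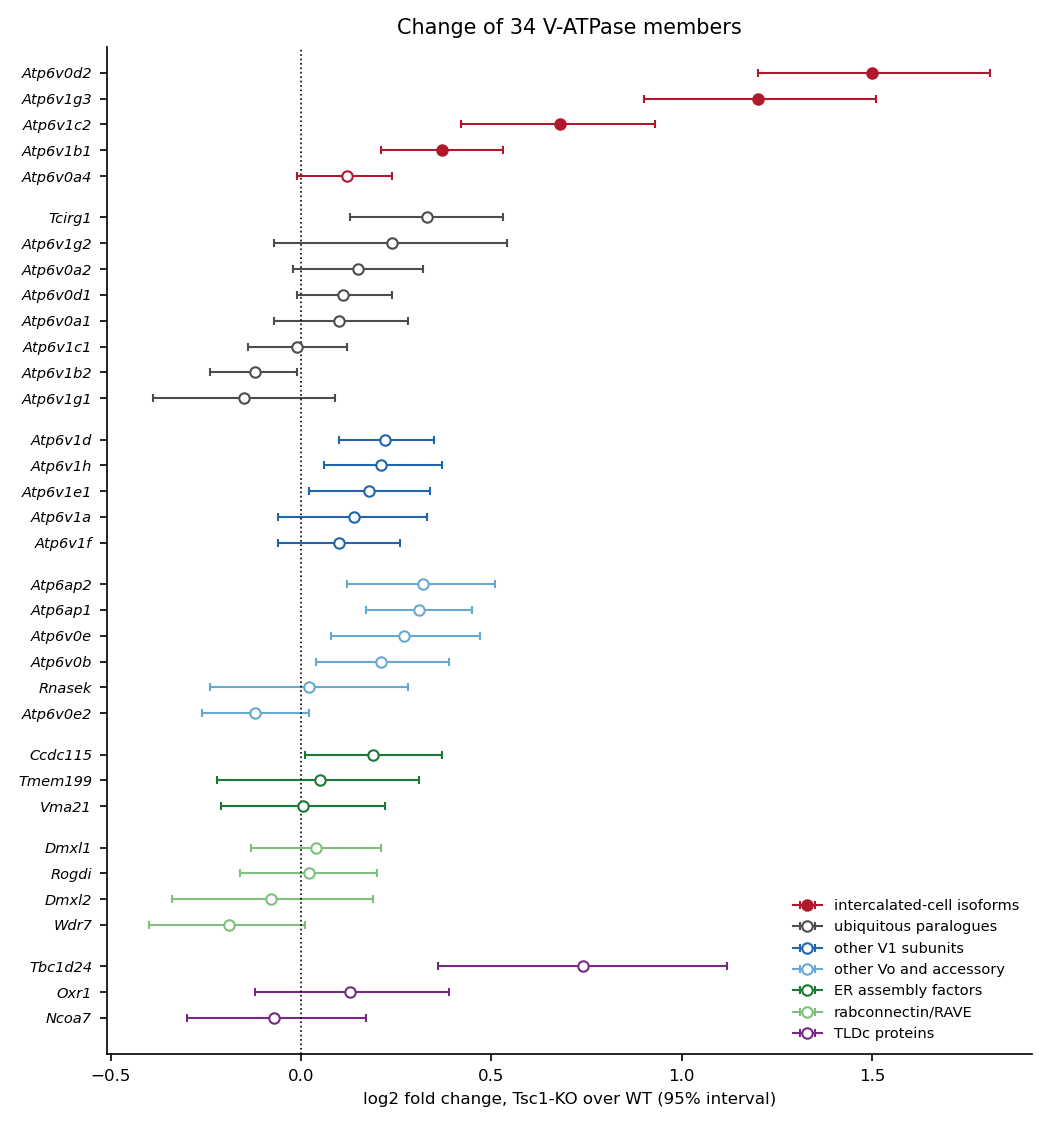
Log2 fold change of Tsc1-KO over WT with its 95% interval for the 34 members, by class, where filled points passed limma at an adjusted p under 0.05 and open points did not. The 4 filled points, between 0.37 and 1.5, are all intercalated-cell isoforms, and the assembly factors scatter around 0 with Tbc1d24 at 0.74.

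The calls rest on few libraries. Without Tsc1-KO replicate 6 limma called 0 members, with 13 higher at an unadjusted p under 0.05, and 0 of all genes, and without Tsc1-KO replicate 5 it called Atp6v0d2 alone. Without WT replicate 1 or 2 it called Atp6v0d2 and Atp6v1g3, without Tsc1-KO replicate 4 it called 3 isoforms, and without WT replicate 3 it called 7 members, adding Atp6ap1, Atp6v0b and Atp6v0e. The log2 fold changes themselves moved less, from 1.40 to 1.63 for Atp6v0d2, 1.09 to 1.30 for Atp6v1g3, 0.57 to 0.79 for Atp6v1c2, 0.33 to 0.42 for Atp6v1b1 and 0.07 to 0.14 for Atp6v0a4 over the 12 alternatives. Atp6v0d2 passed in 11 of these, Atp6v1g3 in 10, Atp6v1c2 in 7 and Atp6v1b1 in 5.

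**Figure D4:**
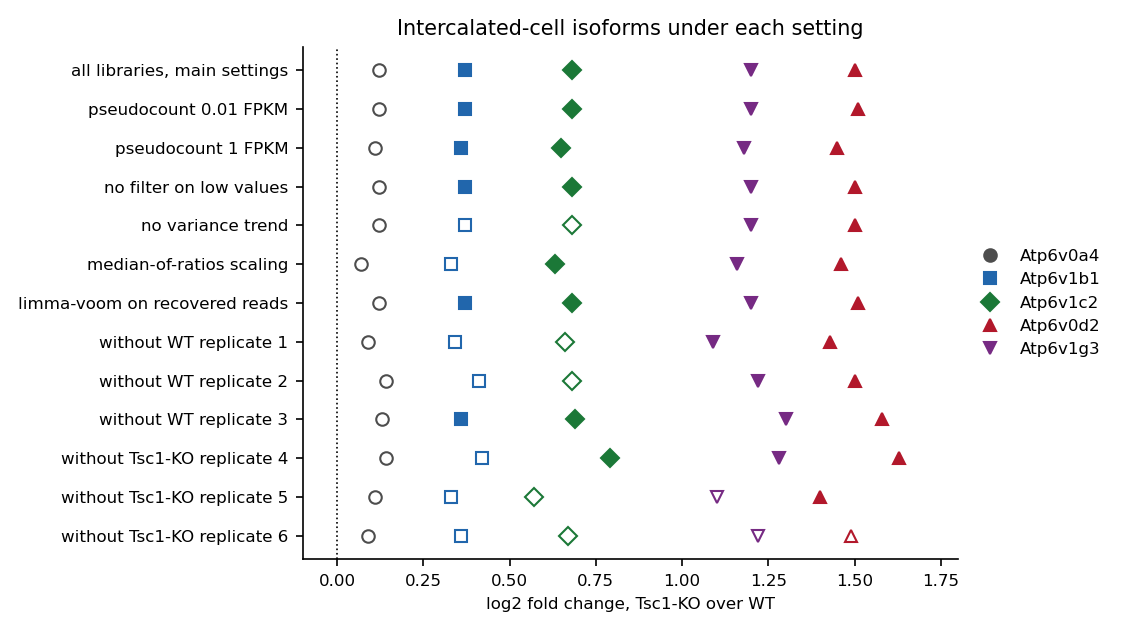
Log2 fold change of Tsc1-KO over WT of the 5 intercalated-cell isoforms with all libraries and under each of 12 alternatives, where filled points passed at an adjusted p under 0.05. The points of each isoform stay on the same side of 0 throughout, and only those of Atp6v0a4 are open in every row.

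Among 20 genes that mark intercalated cells, 10 were higher and 0 were lower in limma, as in limma-voom. In limma 1.87% of all tested genes were higher and 0.234% were lower. The summed level of the 20 was 574 to 687 FPKM in Tsc1-KO libraries and 422 to 465 FPKM in WT libraries. Tsc1-KO replicate 5, the highest library for Atp6v0d2, Atp6v1g3, Atp6v1c2 and Atp6v1b1, also had the highest sum. The same library was highest for the sum of the principal cell markers below (809.9 FPKM). It was also highest for members outside the isoforms, such as Atp6v0d1 and Atp6v1d, so the match is not particular to intercalated cells. The intercalated-cell markers with the smallest p were Dmrt2, a transcription factor (log2 fold change 1.89), Slc4a1, the basolateral anion exchanger (1.25), and Adgrf5, a receptor of these cells (1.45), each with a limma adjusted p of 0.00875. The markers did not all move one way, as 7 of the 20 had a negative log2 fold change. Of these, 3 were at an unadjusted p under 0.05 from limma, by which 5.72% of all tested genes were lower. In 4 every Tsc1-KO library lay below every WT library, against 8.07% of all tested genes. These 4 were Slc26a7, an anion exchanger (log2 fold change -1.24, limma adjusted p = 0.0617), Jchain (-1.52, adjusted p = 0.187), Hmx2, a transcription factor (-0.66, adjusted p = 0.274), and Slc26a4, the anion exchanger pendrin of type B intercalated cells (-0.20, adjusted p = 0.132). In bulk kidney RNA, more cells of a type and more RNA per cell cannot be told apart, nor can fewer cells and less RNA. The part of the number of intercalated cells in the isoform levels was not tested.

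Markers of other cells were set beside the isoforms as well. Of 15 principal cell markers 3 were higher and 0 lower in limma, against 1.87% and 0.234% of all tested genes. The 3 were the sodium channel subunits Scnn1b (log2 fold change 0.66) and Scnn1g (0.57) and the transcription factor Gata3 (0.76). Another 5 of the 15 had a negative log2 fold change. Of these, Fxyd4, a regulator of the sodium pump (-0.35, limma adjusted p = 0.0732), and Kcne1, a potassium channel subunit (-0.42, adjusted p = 0.19), had every Tsc1-KO library below every WT library (8.07% of all tested genes). The summed level of the 15 was 755 to 809.9 FPKM in Tsc1-KO libraries and 622 to 804 FPKM in WT libraries. Of 15 proximal tubule markers limma and limma-voom called 0, with 0 higher and 4 lower at an unadjusted p under 0.05 from limma (13.4% and 5.72% of all tested genes). The smallest p among them was that of Slc27a2, a fatty acid transporter (log2 fold change -0.34, limma adjusted p = 0.0833). Of 14 tested macrophage and osteoclast markers, which bear on Atp6v0d2 and Tcirg1, limma and limma-voom called 0. At an unadjusted p under 0.05 from limma 1 was higher (13.4% of all tested genes), Ctsk, an osteoclast protease (log2 fold change 0.95, limma adjusted p = 0.106). The log2 fold change was positive in 13 of the 14 markers, against 59.8% of all tested genes. The median of these markers was 0.23, against 0.04 over all tested genes. Their summed level was 119 to 161 FPKM in Tsc1-KO libraries and 117 to 129 FPKM in WT libraries, with overlap. No listed marker of these lists was at 0 in a library, and the part of these cells in the isoform levels was not tested.

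Genes that work with the pump were read from lists as well. Of 10 tested partners of acid secretion, 3 were higher and 0 lower in limma, against 1.87% and 0.234% of all tested genes. The 3 were Slc4a1 and the ammonia transporters Rhcg (log2 fold change 0.89) and Rhbg (0.75). In the same list Slc26a7 had a log2 fold change of -1.24, with 0.256, 0.194 and 0.325 FPKM in Tsc1-KO replicates 4, 5 and 6, against 0.925, 0.714 and 0.605 FPKM in WT replicates 1, 2 and 3, and did not pass (limma adjusted p = 0.0617). Among 26 genes of lysosomal enzymes, membrane proteins and regulators, which include Tfeb, Tfe3, Mitf, Flcn, Rragd and Sqstm1, 1 was higher and 0 were lower in limma (1.87% and 0.234% of all tested genes). This was Hexa, a hexosaminidase subunit, at 42.3 ± 1.84 FPKM in Tsc1-KO kidneys and 26.4 ± 1.78 FPKM in WT kidneys (SD, n = 3 each, log2 fold change 0.68, limma adjusted p = 0.00875). By an unadjusted p under 0.05 from limma, 6 of the 26 were higher and 1 was lower, against 13.4% and 5.72% of all tested genes. Every Tsc1-KO library lay above every WT library in 8 and below in 2, against 17.3% and 8.07% of all tested genes. Their median log2 fold change was 0.11, against 0.04 over all tested genes. Of 13 genes of endosomal and lysosomal transport (chloride transporters, the cation channel Mcoln1 and the amino acid transporter Slc38a9) and of the Ragulator, which links the V-ATPase to mTORC1, limma and limma-voom called 0. At an unadjusted p under 0.05 from limma 1 was higher and 1 lower, against 13.4% and 5.72% of all tested genes. The nearest was Clcn5, the endosomal chloride/proton exchanger (log2 fold change 0.41, limma adjusted p = 0.0583). Of the 2 other TLDc genes, Tldc1 and Tldc2, limma and limma-voom called 0, 0 of them at an unadjusted p under 0.05 from limma, and Tldc2 had the smaller p (log2 fold change -0.48, limma adjusted p = 0.262).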

How the data were processed

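Kidney RNA in 3 Tsc1-KO libraries and 3 WT libraries was compared, with each library mapped to its group by its label. Per the labels, the authors used HISAT2 2.0.4 to align reads and HTSeq 0.9.1 to count them. The genome build is not given in the sources used here. The authors deposited FPKM for 15302 genes in 1 column per library, and also base means, a signal that averages normalised counts across libraries. Further deposited columns hold the authors' fold changes and p-values, and were not used.

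Log2(FPKM + 0.1) of 13230 genes averaging 0.5 FPKM or more was fitted in limma 3.58.1 (R 4.3.3) with the genotype as the only term, a trend in the variance and 2-sided tests, and p-values were adjusted by Benjamini-Hochberg across the genes kept. Fold changes are on this scale, which understates those of low genes. Reads were recovered from the FPKM and base means (100% of 90069 values of up to 10000 reads within 0.02 of a whole number) for limma-voom, an alternative. Voom called 251 genes higher and 31 lower, and the FPKM fit 248 and 31. Isoform ratios were compared by exact permutation tests in Python 3.11.15 with scipy 1.17.1. Overlaps of exons were read from GENCODE gene models of GRCm38 and promoters from RefSeq, for 250 bases before to 50 after a start. Intervals are at 95%.

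The members, lists, motifs and tests were chosen with earlier results of these data known. The genes named are all members, with values per library for the isoforms, their paralogues and the 3 other members with the smallest p (Atp6ap1, Tbc1d24 and Atp6v1d), and up to 3 genes with the smallest p per list. Pdia6, which overlaps Atp6v1c2, and the markers named for a negative fold change (Slc26a7, Jchain, Hmx2, Slc26a4, Fxyd4 and Kcne1) were named after their values were seen. The other genes that share exonic bases with members (D630045J12Rik, Tmem213, Nfkbil1 and Ntn3) were also named after results were seen. The alternatives were other pseudocounts, no filter on low values, no variance trend, median-of-ratios scaling, limma-voom and each library left out. Nothing in the labels says more than that the libraries are separate samples, so p-values measure the spread between these samples only.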

Additional observations from a re-analysis of the deposited data

How the results depend on the processing

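Over the alternatives, 0 members were lower and 0 of the 8 paralogues were higher in limma throughout, and the ratios of Atp6v0d2, Atp6v1g3, Atp6v1c2 and Atp6v1b1 to their paralogues kept their sign, with log2 differences of 1.31 to 1.52, 1.29 to 1.44, 0.60 to 0.80 and 0.45 to 0.56 when 1 library was left out. The cause of the changes that follow was not tested, apart from the fewer samples when a library was left out. With 1 library left out, the members higher in Tsc1-KO numbered 0 to 7, the intercalated-cell isoforms among them 0 to 4 and the members that are neither isoform nor paralogue 0 to 3. Over all genes, limma called 709 higher and 400 lower genes when WT replicate 3 was left out. It called 0 to 170 higher and 0 to 14 lower genes when any other single library was left out. Without the variance trend 2 isoforms passed, Atp6v0d2 and Atp6v1g3, together with 1 other member, Tbc1d24 (adjusted p = 0.0486), and limma-voom likewise called 1 other member, again Tbc1d24. Median-of-ratios scaling moved the median of all genes by -0.042 on the log2 scale and left Atp6v1b1 at an adjusted p of 0.0562.

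The ratio of Atp6v0a4 to its paralogues had no stable sign, with log2 differences of -0.11 to 0.0035 when 1 library was left out and of 0.01 against Atp6v0a1 alone. The log2 fold changes of members near 0 also changed sign, from -0.04 to 0.02 for Atp6v1c1, -0.05 to 0.15 for Rnasek, -0.08 to 0.07 for Vma21, -0.04 to 0.17 for Tmem199, -0.18 to 0.03 for Dmxl2 and -0.05 to 0.08 for Rogdi when 1 library was left out. After median-of-ratios scaling they were -0.02 for Rnasek, -0.04 for Vma21, -0.005 for Dmxl1 and -0.02 for Rogdi. None of these members passed in any alternative. The other changes of single members were 15 calls of intercalated-cell isoforms that missed the threshold and 5 calls that were gained.

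No paired analysis was possible because the groups share no replicate numbers. With 3 libraries a group, an exact test of 1 value cannot go below p = 0.1, and recovered reads per library were fewest for Atp6v1g2 (86 to 135) and Tbc1d24 (246 to 622), which limits the precision of their fold changes.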
